A study of Mus musculus with 24 samples.

Results

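The Notch pathway loci were the gene bodies of *Notch1*, *Notch2*, *Notch3*, *Jag1*, *Jag2*, *Dll1*, *Hes1*, *Hey1* and *Rbpj* with 50 kb added on each side, and the data were the accessible regions, found by ATAC-seq, that overlapped these 9 windows. ATAC-seq uses a transposase that inserts sequencing adapters into open chromatin, so that a peak of insertions marks an accessible site. When overlapping peaks were joined, 147 of 98240 regions in vivo, 145 of 97078 regions in culture and 183 of 134385 regions over both systems lay in the windows. Regions entered by position alone, whatever their scores, and no window shared a region with another. The series comprised 24 samples of mouse epidermal stem cells (EpdSCs) in 12 groups of 2 biological replicates, and alignments of both replicates were merged ahead of peak calling, so that each group was 1 peak list. No value below therefore has a spread between replicates, no test was possible, and the intervals given are 95% Wilson intervals that cover counting error only.

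In vivo, the EpdSCs came from male CD1 mice that carried K14rtTA and TRE-myc-Sox9, in which doxycycline (DOX) switches on SOX9 through a *Krt14*-driven activator in the skin epithelium. They were sorted for high integrin α6 (CD49f) and high Ly6A, and against CD34 and the markers of other lineages CD140a, CD117, CD45 and CD31. D0 was postnatal day 21 without DOX, W1, W2 and W6 were postnatal days 28, 35 and 63 after 1, 2 and 6 weeks of DOX, and W12 came from newborn transgenic skin that was grafted onto immunocompromised hosts and, per the study's text, given DOX for 12 weeks once the grafts had healed, so that time and tissue source cannot be told apart for W12. Per the study's methods each replicate pooled several mice. In culture, EpdSCs from newborn skin were kept without DOX (noDOX) or given DOX at 1 µg per ml. The labels of 1 replicate each give day 3 of DOX for WT-SOX9, ΔHMG-SOX9 and ΔTA-SOX9 and day 0 for noDOX, and the length of treatment is not given in the sources used here for the other replicates or for AFOS, SOX9+AFOS and SOX9+ARID1a. The labels gave noDOX and WT-SOX9 as K14rtTA with TRE-myc-Sox9, ΔHMG-SOX9 as K14rtTA with TRE-myc-Sox9noHMG (SOX9 without its DNA-binding domain), and ΔTA-SOX9 as K14rtTA with TRE-myc-Sox9noTA (SOX9 without its transactivation domain). AFOS cells carried K14rtTA and TRE-FLAG-AFOS, a dominant-negative form of FOS that blocks the binding of AP1 factors to DNA. SOX9+AFOS cells carried TRE-myc-Sox9 in addition, and SOX9+ARID1a cells carried K14rtTA, TRE-myc-Sox9 and TRE-ARID1a, where ARID1a is a subunit of the SWI/SNF remodeller. Per the study's methods the SOX9 variants, AFOS and ARID1a were delivered by lentivirus, the latter pair into EpdSCs that either lacked or carried the inducible SOX9 allele. The noDOX list was used here as the control for all 6 arms, a choice that the methods do not state for the AFOS and ARID1a arms.

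The lists held 57334 to 75956 peaks in vivo and 49458 to 60231 in culture. The files carry no read depth, which is therefore unknown. Some features of the lists bear on the results. First, a peak over the last exon of *Sox9*, where a transgene would add signal, was present at D0, W2, W6 and W12 (scores 8.84 to 15.1) and absent from the list labelled W1, which is called W1 below. Second, peaks centred in exons of *Arid1a* past the first numbered 13 in SOX9+ARID1a, 8 in AFOS and 7 in SOX9+AFOS, against 0 or 1 in the other 9 lists, so that the AFOS and SOX9+AFOS lists went against their labels. In culture the *Sox9* exon scored 71.9 in ΔHMG-SOX9 and 21.2 in WT-SOX9, 5.11 in SOX9+AFOS and 3.71 in both SOX9+ARID1a and noDOX, and had no peak in ΔTA-SOX9 or AFOS. The *Sox9* promoter scored the same 71.9 in ΔHMG-SOX9 and 21.2 in WT-SOX9, beside 21.8 in noDOX and 101 in ΔTA-SOX9. Whether the exon values of ΔHMG-SOX9 and WT-SOX9 come from peaks that span the gene was not tested. The *Sox9* exon signal therefore did not bear out the SOX9 label of SOX9+ARID1a, and in SOX9+AFOS it was close to that of noDOX, so that both names below are those of the labels. The peak names of those 3 arms record fragments as the input, unlike the other lists. Promoter peaks of the basal markers *Krt5*, *Krt14*, *Itga6* and *Trp63* were present in all 12 lists, and the follicle stem cell markers *Sox9*, *Lgr5*, *Lhx2* and *Cd34* had one in 12, 9, 8 and 2 lists. None was present at *Ptprc*, *Cd3e*, *Kit* or *Tyr*. *Pdgfra* had one in 12 lists, *Col1a1* and *Pecam1* in 11, *Cdh5* in 2 and *Mlana* in 1. The promoter of the endothelial gene *Pecam1* scored 9.21 at D0, had no peak at W1 and scored 38.3, 42.2 and 41.4 at W2, W6 and W12, and 14.5 to 70.6 in culture, whereas *Cdh5* had no peak in vivo. The part of such cells in the results was not tested.

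Notch signalling passes between touching cells. A ligand of the Jagged or Delta-like family on one cell binds a Notch receptor on its neighbour, the receptor is cleaved, and its intracellular domain enters the nucleus and joins the DNA-binding protein RBPJ to activate genes such as *Hes1* and *Hey1*, which encode repressors. In the epidermis the pathway is known for driving basal cells into differentiation, and in the hair follicle for lineage choice and maintenance of the follicle.

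The regions that carry the time course and the SOX9 response are shown by the plus strand of GRCm38 over their central 200 bases, read from the reference genome. Capitals mark matches, on either strand, to short motifs. The motif searched for RBPJ was GTGGGAA, that for SOX factors was ACAATGG and, as another form, ACAATAG, that for AP1 was TGANTCA, that for the family of GATA factors was AGATAA, and that for RUNX factors was TGTGGT. A match is a description of the sequence and not a binding site. The first 4 are the highest-scoring regions that were gained after W2, gained by W2 and kept, lost by W2 or closed by WT-SOX9, and the other 4 were chosen after their values were seen: the shared regions with the largest score ratio between D0 and W6 in each direction, and the WT-SOX9-opened regions of *Hes1* and *Rbpj* that held the SOX letters.
Notch2 intron, gained by W2 and kept, chr3:98043160-98043359: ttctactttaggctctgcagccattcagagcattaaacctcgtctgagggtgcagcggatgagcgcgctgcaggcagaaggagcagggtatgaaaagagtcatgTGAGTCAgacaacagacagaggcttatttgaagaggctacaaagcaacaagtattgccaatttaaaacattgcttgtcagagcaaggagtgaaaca
Rbpj window, gained after W2, chr5:53430178-53430377: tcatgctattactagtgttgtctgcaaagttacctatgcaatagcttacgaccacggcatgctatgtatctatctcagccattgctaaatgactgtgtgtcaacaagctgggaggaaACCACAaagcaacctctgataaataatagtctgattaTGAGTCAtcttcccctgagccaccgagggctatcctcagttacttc
Jag2 window, lost by W2, chr12:112879881-112880080: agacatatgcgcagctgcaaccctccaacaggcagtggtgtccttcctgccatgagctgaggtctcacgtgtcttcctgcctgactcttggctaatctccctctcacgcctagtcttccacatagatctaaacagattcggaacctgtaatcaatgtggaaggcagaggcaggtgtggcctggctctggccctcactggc
Hes1 window, closed by WT-SOX9, chr16:30042944-30043143: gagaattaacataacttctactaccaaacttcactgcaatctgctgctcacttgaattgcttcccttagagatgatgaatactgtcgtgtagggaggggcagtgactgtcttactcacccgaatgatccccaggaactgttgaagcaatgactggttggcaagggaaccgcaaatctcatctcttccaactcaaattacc
Rbpj intron, higher at W6 than D0, chr5:53490771-53490970: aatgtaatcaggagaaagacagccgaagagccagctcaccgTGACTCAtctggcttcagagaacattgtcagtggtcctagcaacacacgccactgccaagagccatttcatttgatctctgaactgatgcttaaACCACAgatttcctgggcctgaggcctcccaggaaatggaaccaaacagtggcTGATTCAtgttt
Jag1 intron, lower at W6 than D0, chr2:137107899-137108098: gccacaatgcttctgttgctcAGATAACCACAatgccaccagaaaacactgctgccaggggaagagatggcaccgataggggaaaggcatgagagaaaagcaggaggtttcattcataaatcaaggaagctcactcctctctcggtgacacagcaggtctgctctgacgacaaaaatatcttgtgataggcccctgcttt
Hes1 window, opened by WT-SOX9, chr16:30047549-30047748: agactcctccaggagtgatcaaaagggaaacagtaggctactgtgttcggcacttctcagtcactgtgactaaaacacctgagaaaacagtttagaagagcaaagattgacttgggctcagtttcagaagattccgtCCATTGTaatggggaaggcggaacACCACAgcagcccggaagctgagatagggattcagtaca
Rbpj window, opened by WT-SOX9, chr5:53682401-53682600: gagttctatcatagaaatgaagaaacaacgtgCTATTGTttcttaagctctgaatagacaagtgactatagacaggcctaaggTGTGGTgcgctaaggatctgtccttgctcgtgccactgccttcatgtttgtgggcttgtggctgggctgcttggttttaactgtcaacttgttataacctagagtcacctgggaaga

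The *Notch2* stretch held 1 match to the AP1 letters, and the 200 bases at the centre of the region that WT-SOX9 opened there in culture overlapped it by 157 bases and held the same match. The region gained after W2 near *Rbpj* held AP1 and RUNX letters. The *Rbpj* intron held 2 AP1 matches with a RUNX match between them, and the *Jag1* intron a GATA match that overlapped a RUNX match by 1 base. The WT-SOX9-opened regions shown were picked for their SOX letters, which 3 of the 8 opened regions held, and the *Notch2* region, the highest of the 8, did not. The *Jag2* and *Hes1* stretches that were lost or closed held none of the 5 motifs.

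To ask how accessibility at the loci changed after SOX9 induction in vivo, regions were classed by the lists in which they had a peak. Of the 147 regions, 66 (44.9%, 37.1 to 53%) were static, with a peak in all 5 lists, against 37.8% of all regions. The class gained by W2 and kept (peaks at W2, W6 and W12, none at D0 or W1) numbered 10 (6.8%, 3.74 to 12.1%, against 7.99%) and lay in the windows of *Notch3* (3), *Hes1* (3), *Notch2* (2) and *Rbpj* (2). Regions gained after W2, absent through W2 and present at W6 and W12, also numbered 10 (6.8%, 3.74 to 12.1%, against 6.89%), with 2 each at *Notch1*, *Notch3*, *Jag1* and *Rbpj* and 1 each at *Notch2* and *Jag2*. Only 5 regions were lost by W2 and not regained (3.4%, 1.46 to 7.71%, against 5.59%): 2 at *Jag2* and 1 each at *Notch1*, *Jag1* and *Dll1*. The background share lay within the members' interval in each of the 4 classes. The excess of gained over lost regions did not hold under all settings. With a common q-value minimum 2 of 114 regions were gained by W2 and kept (1.75%, against 3.76% of all) and 17 were lost by W2 (14.9%, against 14.6%), and with lists cut to one size 6 of 132 were gained and kept (4.55%, against 5.94%) and 11 lost (8.33%, against 9.77%). The count gained after W2 was 3 when lists were cut to one size (2.27%, against 4.08%), when scores under 5 were removed (2.73%, against 5.54%) and under the common q-value minimum (2.63%, against 5.63%), and 19 without W12 (13.7%, against 15.9%). Without W1 the counts were 71 static (48.3%, against 43%), 11 gained after W2 (7.48%, against 7.88%), 11 gained by W2 and kept (7.48%, against 9.64%) and 5 lost (3.4%, against 5.99%).

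**Figure D1:**
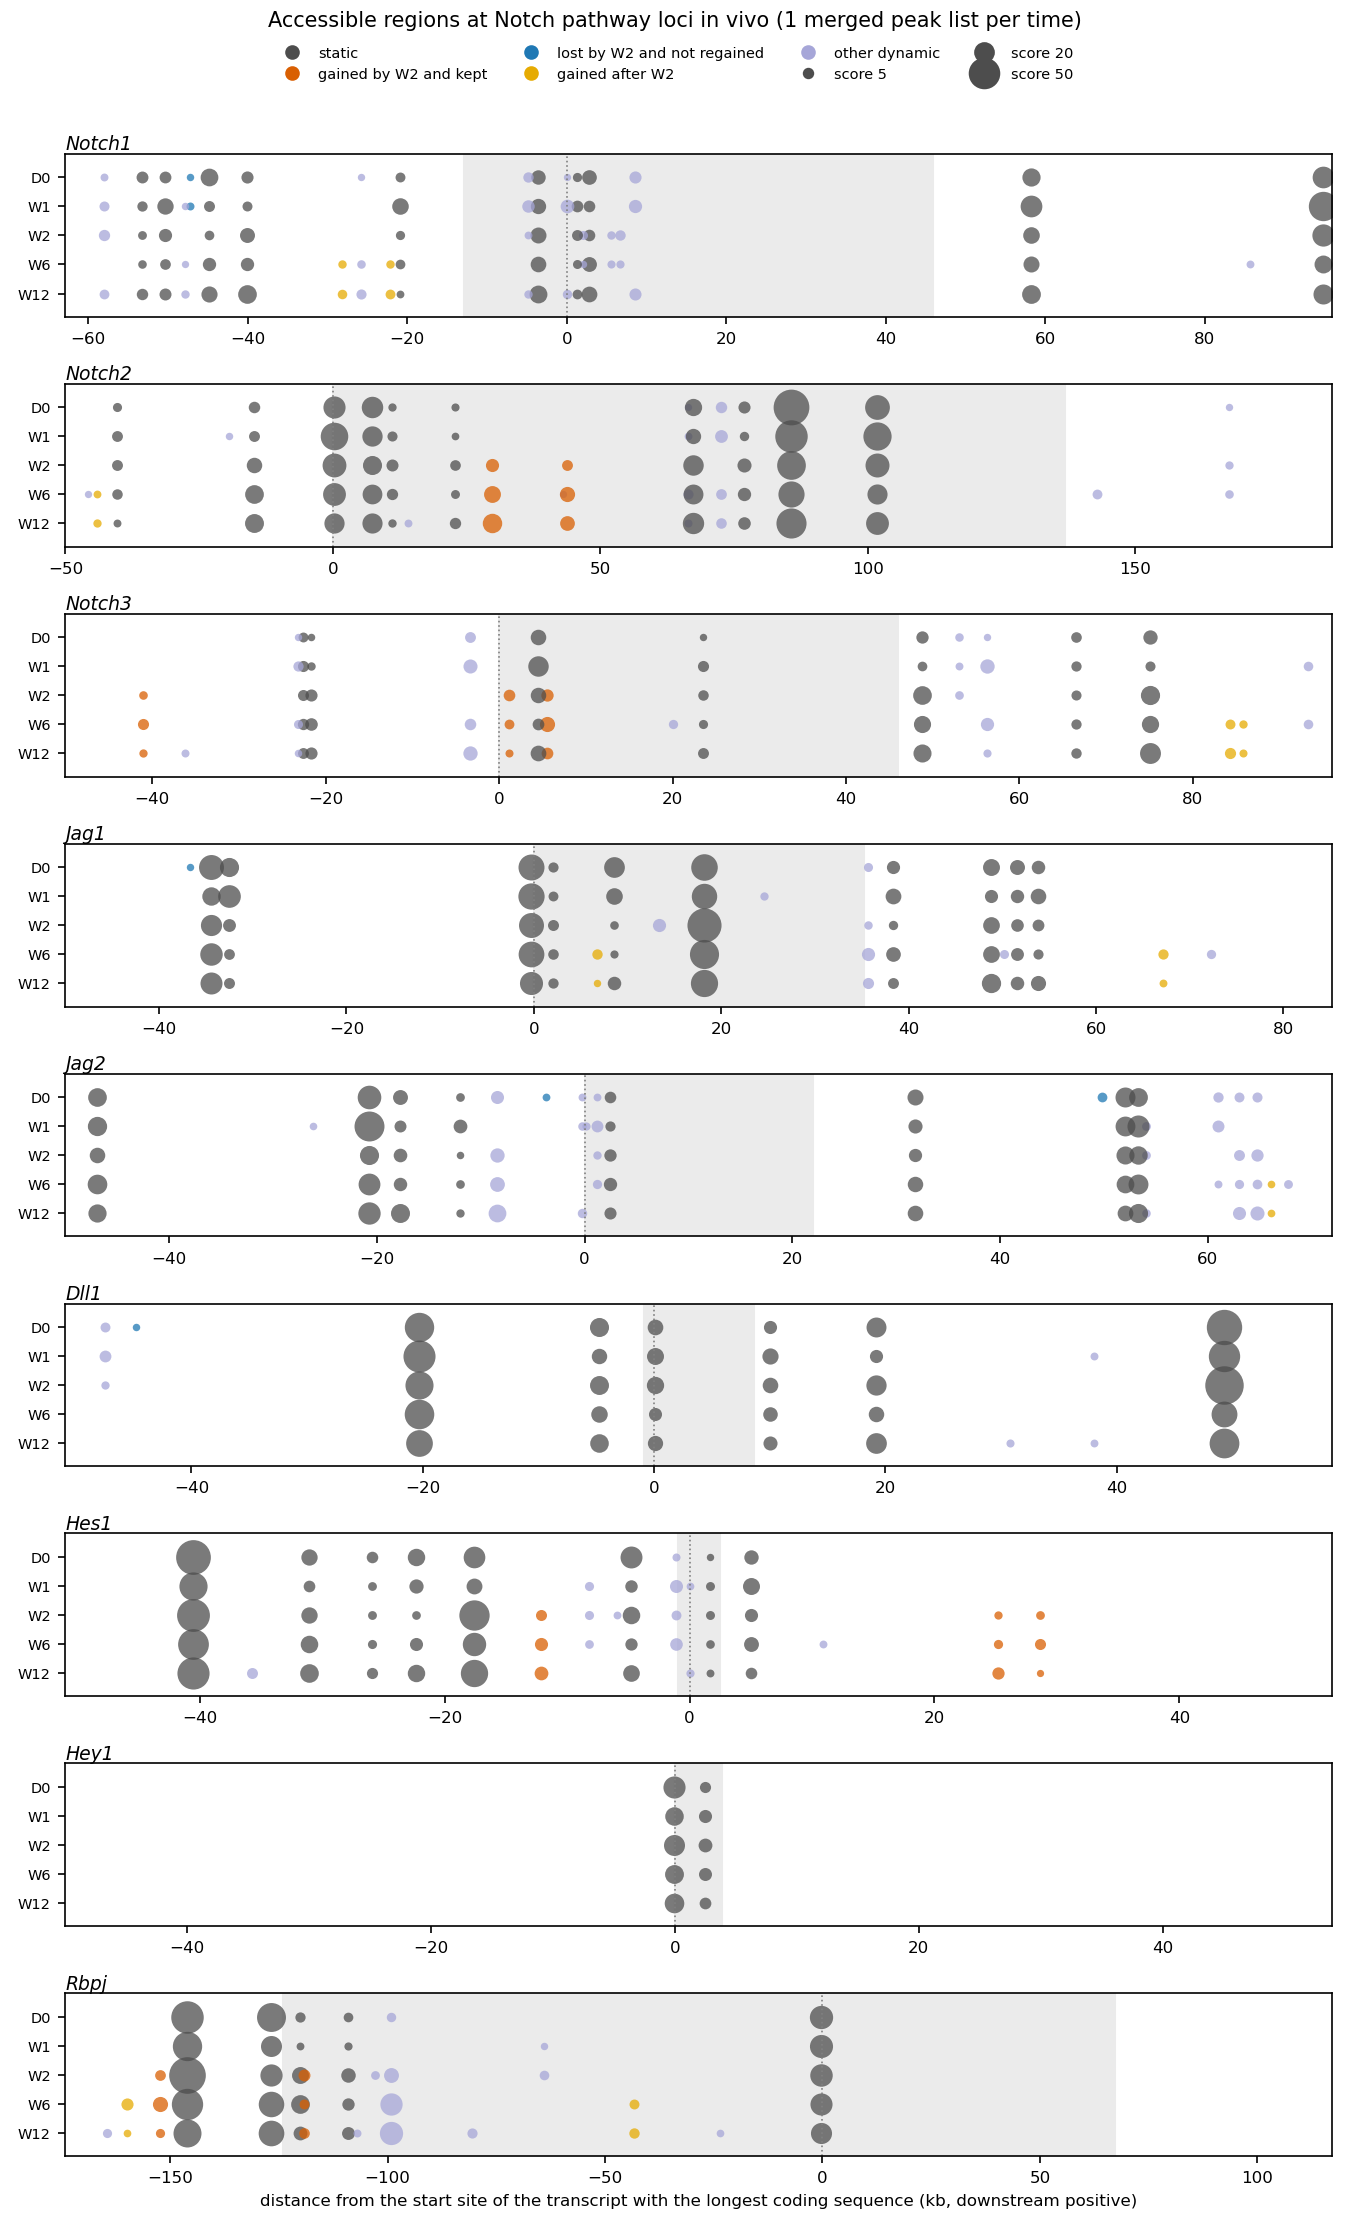
Accessible regions in the 9 windows in vivo. Each row of dots is 1 peak list, the x axis is the distance in kb from the gene's start site (of its transcript with the longest protein), the dot area is the authors' score, the grey band is the gene body and the colour is the class. The 10 regions gained by W2 and kept lie at *Notch2*, *Notch3*, *Hes1* and *Rbpj*, and *Hey1* has 2 regions, both static.

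From one list to the next, 11 of 93 regions of D0 were absent at W1 (11.8%, against 12.9% of all) and 11 of 93 regions of W1 were absent at D0 (11.8%, against 15.4%). From W1 to W2, 18 of 93 were lost (19.4%, against 25%) and 22 of 97 were new (22.7%, against 29.2%). From W2 to W6, 9 of 97 were lost (9.28%, against 11%) and 28 of 116 were new (24.1%, against 26.4%). From W6 to W12, 18 of 116 were lost (15.5%, against 19.1%) and 16 of 114 were new (14%, against 14.5%). The share of all regions lay within the members' 95% interval in each of these 8 counts. The number of open regions in the windows from D0 to W12 was 93, 93, 97, 116 and 114, and over all regions it was 55667, 57321, 60793, 73578 and 69650 in the same order. Of the D0 regions, 12 of 93 were absent at W6 (12.9%, 7.54 to 21.2%, against 19% of all), 24 of 93 (25.8%, against 28.3%) when lists were cut to one size, and 33 of 93 (35.5%, against 36.8%) under the common q-value minimum.

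Promoter peaks, within 1 kb of an annotated start of a protein-coding transcript, separated the members into 3 kinds. *Notch2*, *Jag1*, *Dll1*, *Hey1* and *Rbpj* each had 1 static promoter region in vivo. *Jag1* scored 38.9, 39.7, 35.9, 38.2 and 30.6 from D0 to W12, *Rbpj* 31.2, 30.7, 29.1, 28.1 and 25.6, and *Notch2* 28.2, 43.7, 32.7, 30 and 23.5. The *Hey1* promoter scored 28.2, 19.8, 25.4, 20.5 and 22.1, and that of *Dll1* 14.1, 16.6, 17.2, 9.81 and 13.4. The score is the authors' normalized peak score, whose lowest value kept is 3. *Jag2* and *Hes1* had a weak promoter peak at every time, in promoter regions none of which was open throughout, and *Notch1* had one in 3 of the 5 lists, with a highest score over these genes of 10.8 (*Notch1* at W1). In culture the promoter regions of *Notch2* (11.8 to 32.6, with 29.3 in noDOX), *Dll1* (4.11 to 12.9, with 11.9) and *Rbpj* (27.5 to 66.3, with 49.7) were open in all 7 lists. *Notch3* had no promoter peak in any of the 12 lists. Over the promoter regions of the members open at D0 and W6, the score ratio of W6 to D0 had a median of 0.982 (7 regions), against 0.913 for 13440 promoter regions of all genes.

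**Figure D2:**
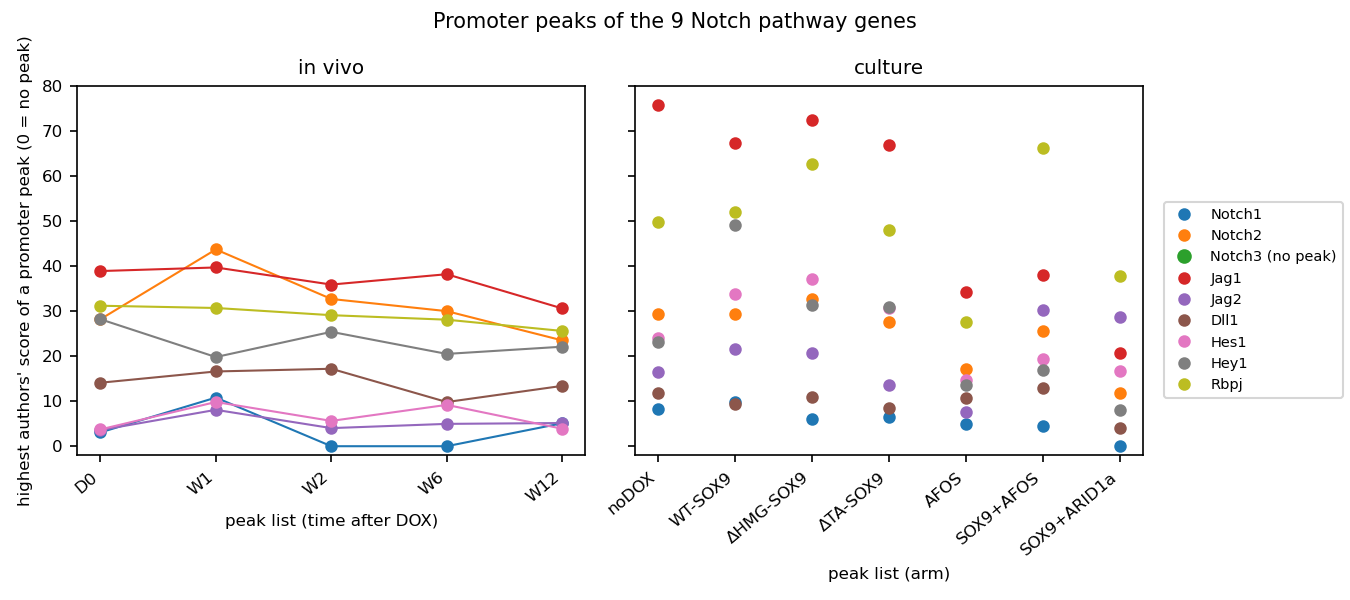
Highest authors' score of a promoter peak for each of the 9 genes in the 5 in vivo lists (left, joined in time order) and the 7 culture lists (right), with 0 for no peak. In vivo *Notch2*, *Jag1*, *Hey1* and *Rbpj* lie at 19.8 or above in all lists while *Notch1*, *Jag2* and *Hes1* lie at 10.8 or below, and in culture the *Hes1* and *Jag2* promoters score 14.8 to 37.2 and 7.6 to 30.2.

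Of the receptors, *Notch1* (ENSMUSG00000026923.15, chr2:26457903-26516663, minus strand), which promotes the differentiation of suprabasal cells, had 23 regions in its window in vivo, 10 of them static. Its promoter region (chr2:26503523-26504126) scored 3.06 at D0, 10.8 at W1 and 5.1 at W12 and had no peak at W2 or W6. Intronic regions moved both ways. The region 8.6 kb downstream of the start scored 8.49 at D0, 10.1 at W1 and 8.42 at W12 and was absent at W2 and W6. Regions at 6.7, 5.6 and 2.0 kb showed the opposite pattern, with peaks only at W2 (scores 6.24, 4.11 and 4.72) and W6 (3.85, 3.81 and 3.15). *Notch1* thus had 1 promoter and 1 intronic region open at D0, W1 and W12 alone and 3 intronic regions open at W2 and W6 alone. The peaks of those 3 had −log10 q-values of 6.11 to 10.7, all below the D0 list's lowest value of 14.5, and none passed a common minimum at that value. The 2 regions gained after W2 lay 22.1 and 28.2 kb upstream (scores 4.1 and 4.09 at W6, 5.57 and 5.26 at W12), and the region lost by W2 lay 47.2 kb upstream and scored 3.21 at D0 and 3.68 at W1, close to the minimum. The highest scores in the window belonged to the promoters of *Inpp5e* (18.5 to 49.6) and *Sec16a* (14.8 to 27.2).

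*Notch2* (ENSMUSG00000027878.11, chr3:98013527-98150361, plus strand) had 21 regions in vivo, 10 static. Its highest region lay in an intron 85.7 kb into the gene and scored 73.6, 60.6, 47.4, 39.4 and 52.2 from D0 to W12. Another intronic region 29.7 kb from the start (chr3:98042956-98043563) was absent at D0 and W1 and scored 9.95, 16.4 and 21.8 at the 3 later times, the highest score in that class in the windows. At W12 this exceeded the score of 82.7% of the peaks in that list, and the MACS2 fold enrichment was 8.7, 9.49 and 11.8. The same site in culture (chr3:98043006-98043600) had no peak in noDOX, ΔHMG-SOX9, ΔTA-SOX9, AFOS or SOX9+AFOS and scored 28.2 in WT-SOX9 and 13.9 in SOX9+ARID1a. It was the only region in the windows that was gained by W2 and kept in vivo and opened by WT-SOX9 in culture. The second gained region, 43.7 kb from the start (chr3:98056855-98057603), scored 6.82, 13.3 and 12.5 at W2, W6 and W12. Its −log10 q-value at W2 was 11.9, below the D0 list's lowest value of 14.5. In culture that site was open in all 7 lists, at 24.8 in noDOX, 9.1 in WT-SOX9, 38.5 in ΔHMG-SOX9, 43.7 in ΔTA-SOX9, 33.7 in AFOS, 8.59 in SOX9+AFOS and 12.3 in SOX9+ARID1a, so that the 3 lowest scores were those of the lists labelled SOX9+ARID1a, SOX9+AFOS and WT-SOX9. A region upstream of the promoter (chr3:97998206-97999211) was static and scored 7.62, 6.87, 13.8, 20.2 and 20.6, whereas its fold enrichment was 9.22 at D0 and 9.43 at W6. The 1 region gained after W2, 44.1 kb upstream, scored 3.55 and 3.97.

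WT-SOX9 closed 6 of the 16 noDOX regions of *Notch2*, against 27.9% of all noDOX regions. Over all regions, 27.1% of the WT-SOX9 regions were opened. Both shares are also the background for the closed and opened counts of the other genes below, each of which rests on few regions. The intronic region 79.4 kb from the start (chr3:98092609-98093304) scored 12.2 in noDOX, 27.1 in ΔHMG-SOX9, 24.9 in ΔTA-SOX9, 28.3 in AFOS and 5.43 in SOX9+ARID1a and had no peak in WT-SOX9 or SOX9+AFOS. The region 11.6 kb upstream (chr3:98001709-98002203) scored 11.2 in noDOX, 10.5 in ΔHMG-SOX9, 3.61 in ΔTA-SOX9 and 15.8 in SOX9+ARID1a and was absent from the other 3. WT-SOX9 opened 3 regions at *Notch2*, of which the second in score (10.5, chr3:98064026-98064652) was open in WT-SOX9 alone.

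*Notch3* (ENSMUSG00000038146.8, chr17:32120820-32166852, minus strand), itself a target of Notch signalling in some tissues, had 19 regions in vivo, 7 static. All 3 of its regions gained by W2 and kept were absent at D0 and W1. The region 5.5 kb downstream of the start (chr17:32161107-32161592) scored 8.76, 13.2 and 7.89 at W2, W6 and W12, and the one at 1.2 kb (chr17:32165439-32165768), the nearest to its promoter, 7.82, 5.56 and 3.73. The −log10 q-value at W2 was 15.8 for the first and 13.9 for the second, beside a lowest kept value of 14.5 at D0. Next to the first lay a static intronic region at 4.5 kb with scores of 13.9, 24.1, 13.8, 7.92 and 14.2, which was the highest at D0 in this window. Regions gained after W2 lay 84.3 kb (scores 5.69 and 7.2) and 85.8 kb (4.01 and 3.74) downstream of the start.

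In culture *Notch3* had 10 regions in noDOX, 6 in WT-SOX9 and 4 in SOX9+AFOS, against 12 or 13 in the other 4 arms. Over all regions the counts were 52401 in noDOX, 51781 in WT-SOX9, 48103 in SOX9+AFOS and 50632 to 58758 in the other 4 arms. At *Notch3* WT-SOX9 opened no region and closed 4 of 10, against 27.9% of all noDOX regions. The highest closed region (chr17:32169687-32170451), 3.2 kb upstream, scored 11 in noDOX, 7.7 in ΔHMG-SOX9, 5.93 in ΔTA-SOX9, 8.17 in AFOS and 7.25 in SOX9+ARID1a and was absent from WT-SOX9 and SOX9+AFOS. In vivo the same site was open at D0, W1, W6 and W12 (6.82, 11.4, 7.69 and 11.8) and absent at W2. The second closed region lay at the promoter of *Ephx3* (5.9 in noDOX and 14.2 in ΔTA-SOX9). Of the 6 regions of *Notch3* open in both lists, 4 scored at least 2-fold lower in WT-SOX9, against 19.6% of all regions open in both lists. An example was chr17:32091136-32092321 (25.4 in noDOX, 6.25 in WT-SOX9).

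At *Notch1*, WT-SOX9 closed 2 of 17 regions and opened 1, in an intron of *Sec16a* (chr2:26417958-26418580, score 10.4 in WT-SOX9 and no peak in the other 6 lists). The closed intronic region at 6.8 kb (chr2:26496625-26497434) scored 9.38 in noDOX, 21.9 in ΔHMG-SOX9, 9.7 in ΔTA-SOX9 and 8.87 in AFOS and was absent from SOX9+ARID1a, SOX9+AFOS and WT-SOX9. The other, at 21.6 kb, scored 4.65 in noDOX, 4.46 in AFOS and 11.3 in SOX9+ARID1a. The *Notch1* promoter was open in 6 culture lists at scores of 4.39 to 9.89 and absent from SOX9+ARID1a. Among regions open in both lists, the intergenic region 53.0 kb upstream (chr2:26556295-26557419) scored 28.3 in noDOX, 4.72 in WT-SOX9 and 71.9 in SOX9+AFOS, whereas the one 28.2 kb upstream (chr2:26531740-26532310) scored 4.43 and 15.5 in noDOX and WT-SOX9.

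Of the ligands, *Jag1* (ENSMUSG00000027276.7, chr2:137081456-137116644, minus strand), which encodes Jagged 1, had 18 regions in vivo, 10 static, and none gained by W2 and kept. At 2 static regions the score was at least 2-fold lower at W6 than at D0. The intronic region 8.6 kb from the start (chr2:137107508-137108489) scored 24.7, 15.9, 4.28, 3.87 and 10.5 from D0 to W12, 6.38-fold lower at W6 than at D0, and its fold enrichment was 10.4 at D0 and 3.21 at W6 (3.25-fold lower). The region 32.5 kb upstream (chr2:137148803-137149402) scored 21.1, 29.6, 9.56, 6.71 and 6.93, with a fold enrichment of 9.83 at D0 and 5.43 at W6 (1.81-fold lower). The intronic region at 18.2 kb (chr2:137097829-137099024) scored 40.6, 37.2, 66.9, 48.8 and 42.6, with its highest value at W2, whereas its fold enrichment was 11.4, 10.9, 11.2, 10.8 and 10.2. A further region at 13.4 kb had its only peak at W2 (score 10). Downstream, a region 35.7 kb from the start that had no peak at W1 scored 4.74 at D0 and 10 at W6, with a fold enrichment of 4.93 and 5.38. Regions gained after W2 lay in the first part of the gene (6.7 kb, scores 6.2 and 3.18) and in an intron of *Slx4ip* (6.07 and 3.59), and the region lost by W2 had a single peak of 3.17 at D0.

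The same *Jag1* sites differed between culture arms. The intron at 18.1 kb (chr2:137098126-137099025) scored 15.8 in noDOX, 40.9 in WT-SOX9, 70.3 in SOX9+AFOS and 32.6 in SOX9+ARID1a, against 5.9 in ΔHMG-SOX9 and no peak in ΔTA-SOX9 or AFOS. The lists labelled SOX9+ARID1a, SOX9+AFOS and WT-SOX9 were above noDOX and the other 3 below. The region 34.5 kb upstream (chr2:137150808-137151458) was lowest in SOX9+AFOS and WT-SOX9, with 45.3 in noDOX, 13.5 in WT-SOX9, 43.6 in ΔHMG-SOX9, 57.1 in ΔTA-SOX9, 59.2 in AFOS, 3.47 in SOX9+AFOS and 33.7 in SOX9+ARID1a. WT-SOX9 opened no region at *Jag1* and closed 3 of 13, of which the 2 highest scored 5.62 and 5.6 in noDOX. The *Jag1* promoter scored 75.8 in noDOX, 67.4 in WT-SOX9, 72.4 in ΔHMG-SOX9, 66.9 in ΔTA-SOX9, 34.3 in AFOS, 38 in SOX9+AFOS and 20.8 in SOX9+ARID1a. Promoter regions of all genes had median score ratios to noDOX of 0.788 in AFOS, 1.02 in SOX9+AFOS and 0.615 in SOX9+ARID1a.

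*Jag2* (ENSMUSG00000002799.6, chr12:112907819-112929776, minus strand), the second Jagged ligand, had 21 regions in vivo, 8 static, in a window shared with *Gpr132*, *Nudt14* and *Btbd6*. Its 3 promoter regions were weak and none was static. One scored 3.53, 8.08, 4.02 and 4.96 from D0 to W6, one 3.58, 4.18 and 5.15 at D0, W1 and W12, and one 3.89 at W1 alone. Of the 2 regions lost by W2, the one 49.8 kb downstream of the start scored 5.5 at D0, the highest of the class in the windows, and the one 3.7 kb upstream scored 3.5. The region gained after W2, in an intron of *Gpr132*, scored 3.36 and 3.43. In culture the *Jag2* promoter region at 1.0 kb (chr12:112928043-112929421) was open in all 7 lists at 7.6 (AFOS) to 30.2 (SOX9+AFOS), with 16.4 in noDOX and 21.7 in WT-SOX9, and a second one (chr12:112929627-112930206) was open in all 7 at 3.27 (SOX9+ARID1a) to 12.1 (SOX9+AFOS). WT-SOX9 closed 1 region, at the promoter of *Gpr132* (4.55 in noDOX), and opened 1 of score 4.45 that was also open in ΔHMG-SOX9, AFOS and SOX9+AFOS.

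*Dll1* (ENSMUSG00000014773.13, chr17:15367354-15376872, minus strand), a Delta-like ligand of basal epidermal cells, had 10 regions in vivo, of which 6 were static and none was gained by W2 and kept or after W2. The highest lay 49.3 kb downstream of the start and scored 72, 56.6, 85.2, 38.5 and 51 from D0 to W12. The region lost by W2 lay in an intron of *Fam120b* and scored 3.22. In culture WT-SOX9 opened no region and closed 1 of 7 (chr17:15344927-15345441), which scored 4.81 in noDOX, 6.06 in ΔTA-SOX9, 3.31 in AFOS and 10.8 in SOX9+ARID1a. The region 19.1 kb downstream (chr17:15356454-15357273) scored 25.2 in noDOX, 6.88 in WT-SOX9, 17 in ΔHMG-SOX9, 22.4 in ΔTA-SOX9, 21.5 in AFOS and 15 in SOX9+ARID1a and was absent from SOX9+AFOS.

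*Rbpj* (ENSMUSG00000039191.12, chr5:53466152-53657362, plus strand), which encodes the DNA-binding partner of the receptors' intracellular domain, had 6 regions at D0, 10 at W2 and W6 and 14 at W12, among 16 in vivo, 4 of which were open at W12 alone. From D0 to W12 this was the largest increase of any member, whereas from D0 to W6 the counts at *Notch2* (13 to 19), *Notch3* (11 to 17) and *Hes1* (9 to 14) increased by more. Over all regions the counts also increased, from 55667 at D0 to 73578 at W6 and 69650 at W12, the graft list. The *Rbpj* regions open at W12 alone had −log10 q-values of 17.4, 12.6, 21.8 and 11.6. The lowest value kept was 14.5 at D0 and 10.1 at W12. The region shown above (chr5:53490518-53491223) scored 5.14 at D0, 12.8 at W2, 28.6 at W6 and 31.1 at W12 and was absent at W1, a 5.55-fold higher score at W6 than at D0, the largest such ratio in the windows, while the MACS2 fold enrichment was 7.4 and 11.9 (1.61-fold higher). At D0 it exceeded 23.8% of the peaks in the list and at W12 91.1%. A static region at chr5:53469372-53470571 scored 6.05, 3.53, 16.5, 20.2 and 11, with a fold enrichment of 7.28 at D0 and 8.45 at W6 (1.16-fold higher). A region gained by W2 and kept lay beside it (chr5:53470708-53471072, scores 8.19, 5.67 and 6.54). The other gained and kept region, upstream of the gene (chr5:53437557-53438194), scored 6.67, 13.2 and 4.85 and held SOX and RUNX letters. Its −log10 q-value was 11.6 at W2, and that of the gained region beside the static one was 12.4 at W6. Both were below the D0 list's lowest value of 14.5. Regions gained after W2 lay upstream of the gene (chr5:53430068-53430488, 8.47 at W6 and 3.39 at W12) and in an intron (chr5:53546582-53547005, 5.7 and 6.21).

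In culture the *Rbpj* intron was open without DOX. The site (chr5:53489815-53491333) scored 42.9 in noDOX, 11.8 in WT-SOX9, 40.3 in ΔHMG-SOX9, 65.3 in ΔTA-SOX9, 39.1 in AFOS and 15 in SOX9+ARID1a and had no peak in SOX9+AFOS. The lowest values were in the lists labelled SOX9+ARID1a, SOX9+AFOS and WT-SOX9. How many culture regions show this order was not counted, and the *Notch1* region 53.0 kb upstream had its highest score, 71.9, in SOX9+AFOS. WT-SOX9 opened 2 intergenic regions past the 3′ end of *Rbpj*. The first (chr5:53682195-53682806) scored 15.1 in WT-SOX9, 7.28 in SOX9+AFOS and 11.3 in SOX9+ARID1a and was absent from noDOX, ΔHMG-SOX9, ΔTA-SOX9, AFOS and all 5 in vivo lists. The second (chr5:53660538-53660896) scored 3.38 in WT-SOX9 and 7.03 in SOX9+ARID1a. Both lay nearer to the start of *Cckar* than to that of *Rbpj*. The 1 region closed by WT-SOX9, in an intron (chr5:53482858-53483345), scored 11.6 in noDOX, 4.13 in ΔHMG-SOX9, 7.37 in ΔTA-SOX9, 9.41 in AFOS and 4.65 in SOX9+ARID1a.

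**Figure D3:**
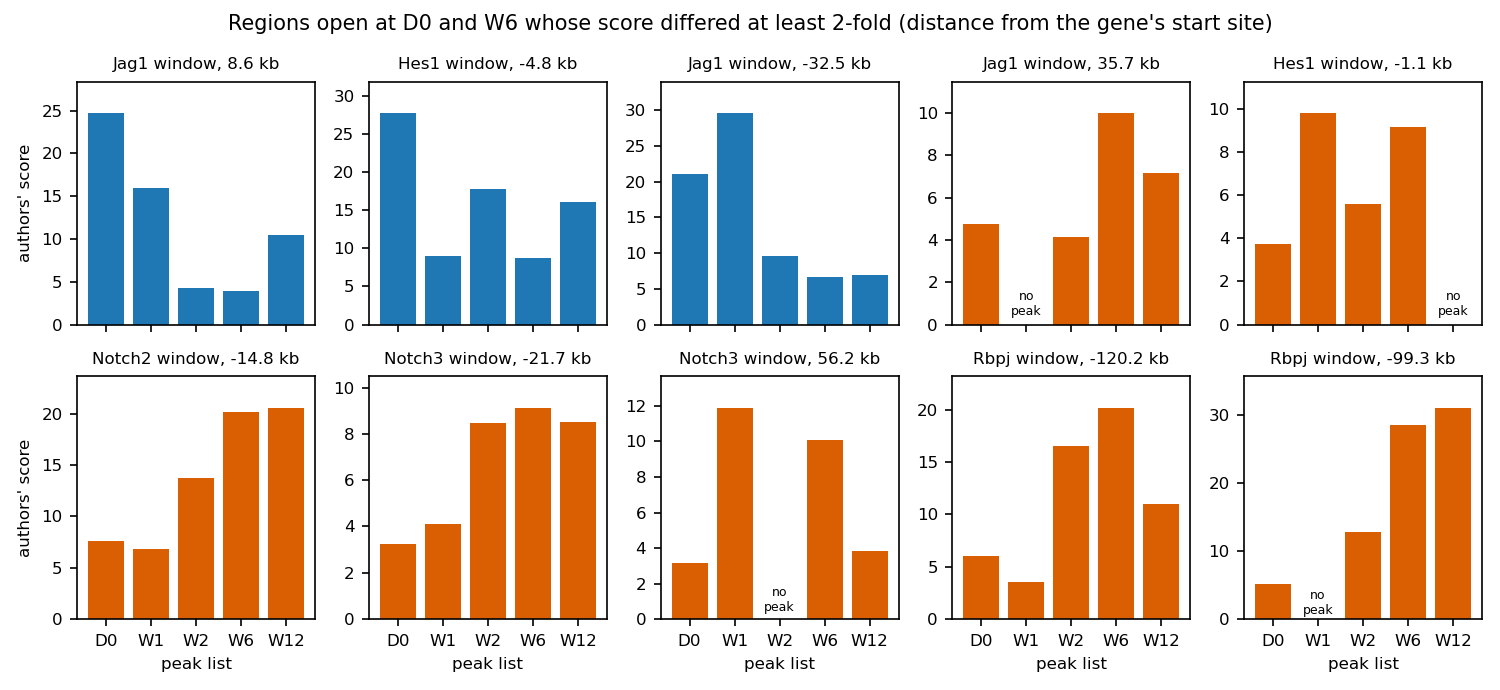
Authors' score in the 5 in vivo lists for the 10 regions of the windows that were open at D0 and W6 and differed at least 2-fold in score between them, ordered by the ratio. Each panel names the window and the distance of the region from the gene's start site, blue bars are lower and orange bars higher at W6. The *Jag1* intron (24.7 to 3.87) and the *Rbpj* intron (5.14 to 28.6) are the extremes.

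Of the targets, *Hes1* (ENSMUSG00000022528.8, chr16:30064384-30067796, plus strand) had 17 regions in vivo, 8 static, none over another protein-coding gene. The highest lay 40.5 kb upstream of the start and scored 69.5, 45.7, 62.1, 54.5 and 59.5. Its promoter was weak in vivo. The region over the start itself scored 3.42 at W1 and 3.88 at W12 and held the RBPJ letters, and the one at 1.1 kb upstream scored 3.73, 9.82, 5.62 and 9.18 from D0 to W6. The 3 regions gained by W2 and kept lay 12.1 kb upstream (chr16:30053012-30053544, scores 7.03, 9.91 and 10.9), 25.2 kb downstream (3.97, 4.9 and 8.68) and 28.6 kb downstream (4.42, 7.07 and 3.02). Their −log10 q-values at W2 were 12.3, 6.14 and 7.04, all below the D0 list's lowest value of 14.5. Between the gained regions and the distal region, a static site 17.6 kb upstream (chr16:30047282-30048104) scored 27, 14.5, 52.9, 31.5 and 42.9, with the value at W1 the lowest and that at W2 the highest. Its fold enrichment differed less, at 10.1, 8.39, 12.8, 11.2 and 11.6. A static region 4.8 kb upstream scored 27.7, 8.93, 17.7, 8.72 and 16, 3.18-fold lower at W6 than at D0, with a fold enrichment of 7.86 and 4.09 (1.92-fold lower).

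In culture both *Hes1* promoter regions were open in all 7 lists. The upstream one (chr16:30063201-30064505) scored 24.1 in noDOX, 33.8 in WT-SOX9, 37.2 in ΔHMG-SOX9, 30.6 in ΔTA-SOX9, 14.8 in AFOS, 19.4 in SOX9+AFOS and 16.8 in SOX9+ARID1a, and the one over the start 8.23 to 12.7. The site 17.7 kb upstream (chr16:30047400-30047897), which was static in vivo, had no peak in noDOX and scored 4.69 in WT-SOX9 and 14.4 in SOX9+ARID1a, with none in the other 4 arms. It was the only region opened by WT-SOX9 in this window. WT-SOX9 closed 4 of 15 regions, the highest 22.3 kb upstream (chr16:30042748-30043340) at 14.2 in noDOX, 12 in ΔHMG-SOX9, 10.9 in ΔTA-SOX9, 10.7 in AFOS and 7.83 in SOX9+ARID1a, with no peak in WT-SOX9 or SOX9+AFOS. The second, 35.7 kb upstream, scored 5.42 in noDOX and 8.82 in SOX9+ARID1a and was absent from the other 5. The distal region 40.5 kb upstream scored 101 in noDOX and 41.4 in WT-SOX9.

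*Hey1* (ENSMUSG00000040289.8, chr3:8663359-8667256, minus strand) had 2 regions in either system, the fewest of any member, and both lay at the gene. In vivo the promoter region (chr3:8666695-8668092) held the RBPJ letters, as did its counterpart in culture, and the region at 2.5 kb, over a coding exon, scored 7.14, 9.88, 11, 9.74 and 7.92. In culture the promoter scored 23.2 in noDOX, 49.2 in WT-SOX9, 31.3 in ΔHMG-SOX9, 31 in ΔTA-SOX9, 13.5 in AFOS, 17 in SOX9+AFOS and 8.09 in SOX9+ARID1a. The WT-SOX9 score was 2.12-fold that of noDOX, against a median ratio of 1.16 for promoter regions of all genes. No region of *Hey1* was opened or closed by WT-SOX9.

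**Figure D4:**
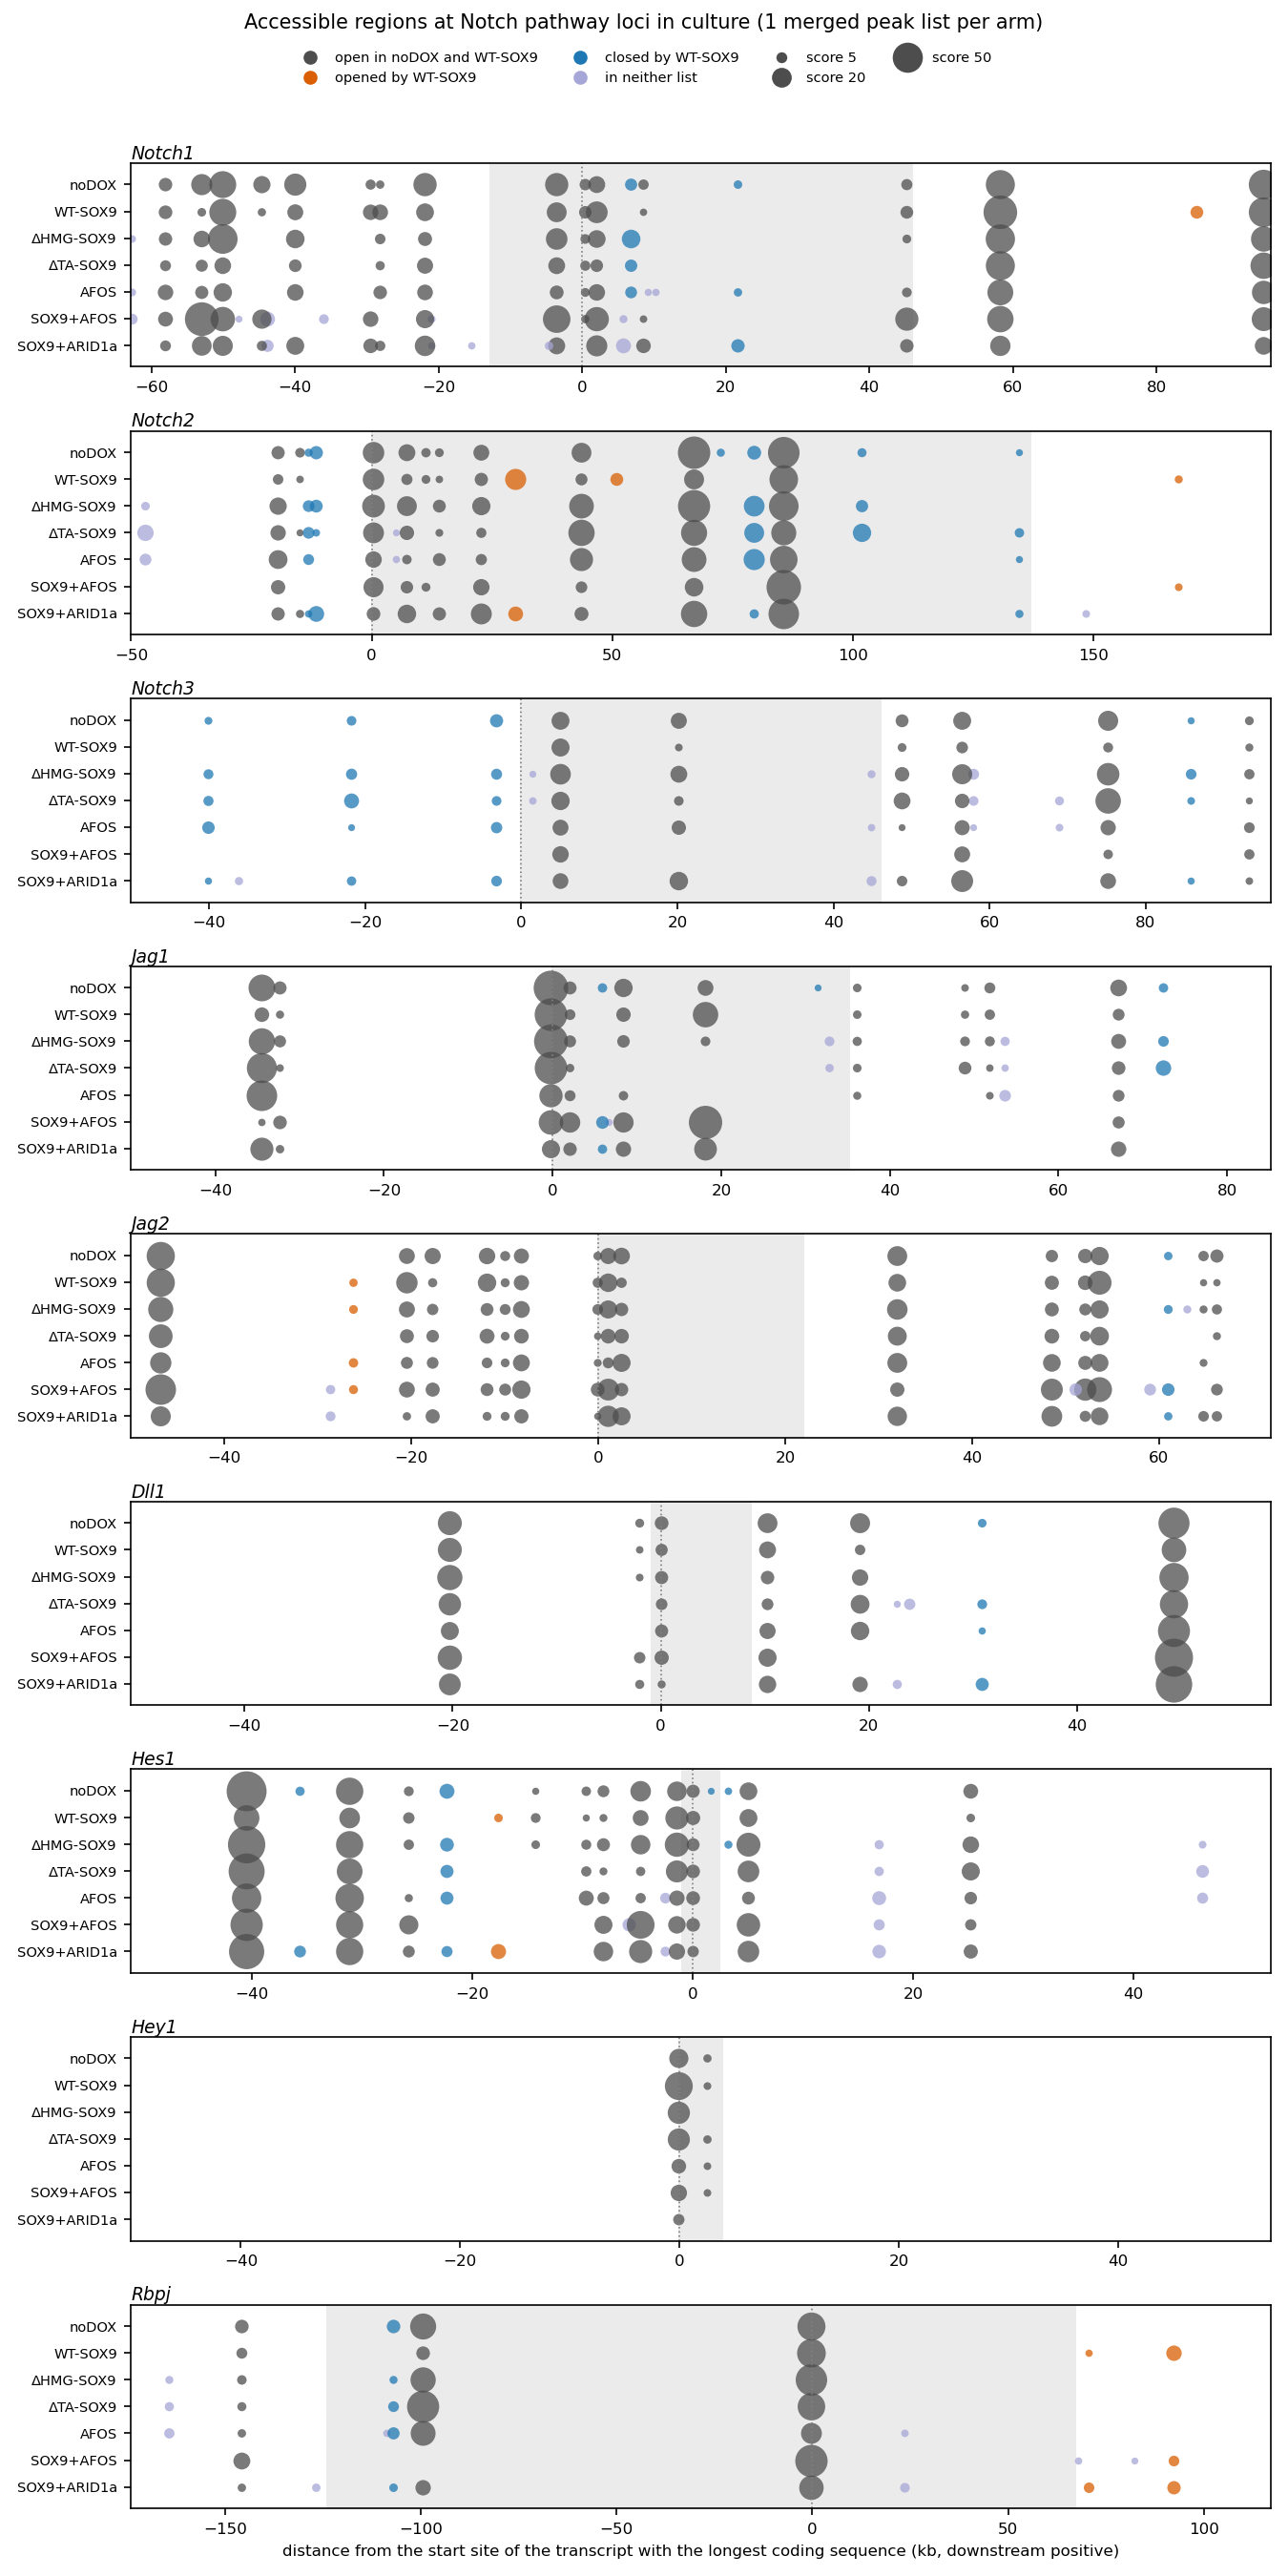
Accessible regions in the 9 windows in culture, drawn as for the in vivo lists, with 1 row of dots per list and colours for the state in noDOX and WT-SOX9. The 8 regions opened by WT-SOX9 are spread over *Notch1*, *Notch2*, *Jag2*, *Hes1* and *Rbpj*, and the 22 closed regions lie in every window except that of *Hey1*.

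To ask how each form of SOX9 and its co-factors acted on the loci in culture, regions opened (absent without DOX, present in the arm) and closed (present without DOX, absent in the arm) were counted. WT-SOX9 closed 22 of 100 noDOX regions (22%, 15 to 31.1%, against 27.9% of all), and 8 of its 86 regions were opened (9.3%, 4.79 to 17.3%, against 27.1% of all). The background lay above the interval for opened regions and within it for closed ones. ΔHMG-SOX9 closed 14 (14%, 8.53 to 22.1%, against 18.5%) and opened 12 of 98 (12.2%, 7.15 to 20.2%, against 15.6%). ΔTA-SOX9 closed 19 (19%, 12.5 to 27.8%, against 19.2%) and opened 12 of 93 (12.9%, 7.54 to 21.2%, against 25.3%), where the background again lay above the interval.

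In AFOS, 22 regions were closed (22%, 15 to 31.1%, against 17.3%) and 16 of 94 were opened (17%, 10.8 to 25.9%, against 26.3%). In SOX9+AFOS, 34 were closed (34%, 25.5 to 43.7%, against 34.9%) and 17 of 83 were opened (20.5%, 13.2 to 30.4%, against 29%). In SOX9+ARID1a, 15 were closed (15%, 9.31 to 23.3%, against 20.5%) and 18 of 103 were opened (17.5%, 11.3 to 25.9%, against 23.6%). The opened share was below that of all regions in all 6 arms, and the background lay above the members' interval in WT-SOX9, ΔTA-SOX9 and AFOS. With scores of at least 5 the latter held for WT-SOX9 alone (11.1%, 5.49 to 21.2%, against 25.2%). The share was then 17.6% (10.6 to 27.8%, against 23.2%) in ΔTA-SOX9 and 16.9% (9.94 to 27.3%, against 24%) in AFOS, and in ΔHMG-SOX9 it was above that of all regions (17.6%, 11 to 27.1%, against 14.8%). These arms share their noDOX control. Of the 22 regions closed by WT-SOX9, 20 were also closed in SOX9+AFOS (90.9%, against 74.5% of all WT-SOX9-closed regions), 11 in AFOS (50%, against 37%), 8 in ΔHMG-SOX9 (36.4%, against 42.2%), 8 in ΔTA-SOX9 (36.4%, against 37.8%) and 7 in SOX9+ARID1a (31.8%, against 43.3%). Of the 8 opened by WT-SOX9, 4 were open in SOX9+ARID1a (50%, against 39.2% of all WT-SOX9-opened regions), 3 in SOX9+AFOS (37.5%, against 34.3%), 1 in ΔHMG-SOX9 (12.5%, against 11.3%), 1 in AFOS (12.5%, against 16.4%) and 0 in ΔTA-SOX9 (against 11.5%).

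**Figure D5:**
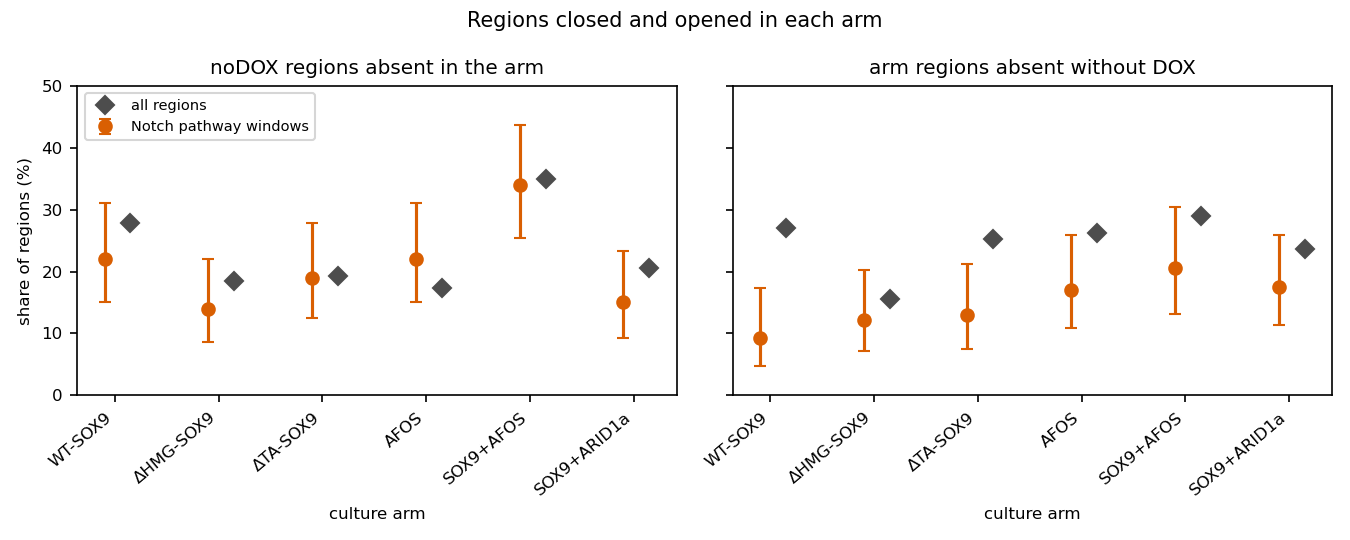
Share of noDOX regions absent in each arm (left) and share of each arm's regions absent without DOX (right), in per cent. Circles are the 9 windows with 95% Wilson intervals (counting error only) and diamonds are all regions. For WT-SOX9 the opened share is 9.3% in the windows and 27.1% over all regions.

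Where a region was open in both lists, scores were compared. In vivo, 7 of 81 regions open at D0 and W6 scored at least 2-fold higher at W6 (8.64%, 4.25 to 16.8%, against 11.5% of all) and 3 at least 2-fold lower (3.7%, 1.27 to 10.3%, against 11.3%), the latter being 2 at *Jag1* and 1 at *Hes1*. By the deposited MACS2 fold enrichment, the counts were 0 of 81 at least 2-fold higher (0%, 0 to 4.53%, against 0.417% of all) and 1 at least 2-fold lower (1.23%, 0.218 to 6.67%, against 5.35%), the *Jag1* intron at 8.6 kb, so that the score differences named for the other 9 regions did not reach 2-fold on that measure. The 7 regions with higher scores were 2 each at *Notch3* and *Rbpj* and 1 each at *Notch2*, *Jag1* and *Hes1*. In culture, 4 of 78 regions scored at least 2-fold higher in WT-SOX9 than in noDOX (5.13%, 2.01 to 12.5%, against 6.04%) and 21 at least 2-fold lower (26.9%, 18.3 to 37.7%, against 19.6%). The median ratio of WT-SOX9 to noDOX was 0.794 in the windows and 0.912 over all regions, and that of W6 to D0 was 1.01 and 0.952. The 4 higher ones were the *Hey1* promoter, the *Jag1* intron at 18.1 kb and 2 intergenic regions at *Notch1*, whereas lower ones were found in all windows except that of *Hey1*.

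Over all 12 lists, 35 of the 183 regions in the windows were open in every list (19.1%, 14.1 to 25.4%, against 14.1% of all regions). Another 38 had peaks in vivo alone (20.8%, 15.5 to 27.2%, against 27.9%) and 43 in culture alone (23.5%, 17.9 to 30.1%, against 29.1%). Among those 10 regions that were gained by W2 and kept in vivo, 3 overlapped a region open in noDOX (30%, against 37.9% of all such regions), 4 one open in WT-SOX9 (40%, against 49.7%) and 1 one opened by WT-SOX9 (10%, against 20.1%).

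Of the 147 in vivo regions, 56 lay over the member's own gene body or promoter, 9 over the promoter of another protein-coding gene alone, and 107 had the member's start as the nearest. The RBPJ letters were found in 14 (9.52%, 5.76 to 15.4%, against 5.09% of 98198 in vivo regions), among them the promoters of *Hes1* and *Hey1* and a static intronic region each at *Notch1*, *Notch3* and *Jag1*. In culture 8 of 145 held them (5.52%, 2.82 to 10.5%, against 4.71%). The AP1 letters were in 35 of the in vivo regions (23.8%, against 24%), RUNX in 26 (17.7%, against 14.9%), SOX in 8 (5.44%, against 5.33%) and GATA in 7 (4.76%, 2.33 to 9.5%, against 10.5%). Of the 8 regions opened by WT-SOX9, 3 held the SOX letters (37.5%, 13.7 to 69.4%, against 16.8% of all 14021 such regions), and of the 22 closed, 1 did (4.55%, against 3.5%) and 6 held the AP1 letters (27.3%, against 36.6%). RefSeq promoters (GRCm38.p6) were found for all members except *Hes1* and *Hey1*. None of those 7 genes' promoters held the RBPJ letters (6.38% of 32851 promoters did), and that of *Dll1* held the AP1 letters (7.81%).

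The other genes of the pathway, a list of 31 covering receptors, ligands, glycosyltransferases, proteases, co-factors and further targets, had 447 regions in vivo, of which 220 were static (49.2%, against 37.8% of all regions), 35 were gained by W2 and kept (7.83%, against 7.99%), 15 were lost by W2 (3.36%, against 5.59%) and 20 were gained after W2 (4.47%, against 6.89%). In culture 56 of 277 noDOX regions were closed in WT-SOX9 (20.2%, against 27.9%) and 67 of 288 WT-SOX9 regions were opened (23.3%, against 27.1%), beside 8 of 86 for the 9 members. At least 1 region opened by WT-SOX9 was found in the windows of 22 of the 31 genes, and 1 gained by W2 and kept in those of 19. No share over the windows of all genes was computed for these counts or for the promoter counts below, so they describe the list alone. *Maml2*, a co-activator that joins RBPJ, had 7 of 36 regions gained by W2 and kept, and *Fbxw7*, which marks the receptor's intracellular domain for degradation, had 3 of 33. Promoter peaks were present in all 5 in vivo lists at 23 of the 31 genes, among them *Ncstn*, *Aph1a* and *Psenen*, which encode subunits of the protease that cleaves the receptors, and 2 genes, *Dll3* and *Hes5*, had none in any list.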

How the data were processed

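ATAC-seq peak lists of 12 groups (24 samples) were used. The authors' processing notes give alignment to GRCm38 with Bowtie2 (2.2.9), whereas the study's ATAC-seq methods name the PEPATAC pipeline for this step. Per the labels and the methods they then merged both replicates of a group, called peaks with MACS2 (2.1.1) and removed peaks with a normalized score under 3. The deposited scores summed to 925672 to 996710 per list, from which scaling to 1 total is inferred, and no source used here states it. The in vivo lists also gave fold enrichment, a ratio over local background computed by the authors, and the deposited −log10 q-value, whose lowest kept value ran from 4.21 at W2 to 14.5 at D0, so that the evidence behind a score of 3 differed between lists.

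Peaks overlapping by at least 1 bp were joined, separately for in vivo, culture and all lists, and a region was present in a list with a peak in it. The highest score in a region was used. Gene models were protein-coding transcripts of GENCODE M21 (GRCm38), and letters were sought in the central 200 bp of each region with pysam 0.24.0. Shares carry 95% Wilson intervals, and all regions of the same lists are the background. No test was run, since each group is 1 list. Regions named were all promoter regions and, per member and class, up to 2 of the highest score. Others named were chosen after their values were seen. The members and lists were chosen with earlier results of these data known. Joining and classes were tested on simulated data. Alternatives were scores of at least 5, lists cut to the size of the shortest, joining at 100 bp, windows of 10 kb and, in vivo, a common −log10 q minimum of 14.5. Leaving out W1 or W12, and the fold enrichment in place of the score, were added after the data were seen.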

Additional observations from a re-analysis of the deposited data

How the results depend on the processing

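No paired analysis was possible because the replicates of each group were merged before peaks were called, and for the same reason no replicate could be left out. Of 85 values of 19 shares under the alternatives, 69 lay within the 95% interval of the share as reported and 16 did not. Under the common −log10 q minimum the share gained by W2 and kept was 1.75% (3.76% of all regions), the share lost by W2 14.9% (14.6%), the share gained after W2 2.63% (5.63%) and the share of D0 regions absent at W6 35.5% (36.8%). With lists cut to one size the share lost by W2 was 8.33% (9.77% of all), the share gained after W2 2.27% (4.08%), the share of D0 regions absent at W6 25.8% (28.3%) and the share of AFOS regions absent without DOX 9.33% (20.9%). With scores of at least 5 the share gained after W2 was 2.73% (5.54% of all), and without the W12 list it was 13.7% (15.9%). With windows of 10 kb the share lost by W2 was 1.32%, and the shares opened were 6.25% in ΔHMG-SOX9, 6.67% in ΔTA-SOX9 and 11.9% in SOX9+AFOS. With the authors' fold enrichment in place of the score, 0% of shared regions were at least 2-fold higher at W6 than at D0 (0.417% of all) and 1.23% lower (5.35%). The causes were not tested, except that the 10 kb windows hold fewer regions. All shares of regions closed in culture, the static share and the opened share of WT-SOX9 lay within their intervals in every alternative run. Read depth is unknown.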
